A study of Homo sapiens with 24 samples.

Results

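The genes described here code for the protein subunits of the human mitochondrial ribosome and were chosen by symbol, MRPL for the large and MRPS for the small subunit. Among the 19775 genes that at least 1 probe set reads alone, 77 had such a symbol. Of these, 48 code for large and 27 for small subunit proteins, and the other 2 are transcripts that code for none, the antisense RNA MRPL20-AS1 and the pseudogene MRPL45P2. MRPL53 and MRPS24, read only by probe sets shared with another gene, were not analysed. A gene was tested when its brightest probe set reached log2 4 on at least 3 arrays, which 10661 genes did. All 75 coding members passed with no array near that limit, the lowest value being 8.18 (MRPS34 in treated TALL-1 cells). The symbol does not follow structure in every case: MRPS30 and MRPS18A are placed in the large subunit by structural work and are counted here by symbol.

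In this study RPMI-8402, TALL-1, P12-ICHIKAWA and SUPT11 cells, 4 established human lines of T-ALL (acute lymphoblastic leukaemia of T cells), received NVS-ZP7-3 or only its solvent DMSO for 16 h, and 3 arrays were made per line and treatment (24 arrays, 8 groups). All cultures held DMSO at 0.5%, and the culture volume was 10 ml for each treatment. The labels give no dose of the compound, and the design asks how each line responds to it. Each line is a single established culture, so a difference between lines is one between those cultures. Whether the 3 arrays of a group came from separate cultures is not stated, so a p-value here reflects only how far these samples spread, and that spread could be technical. Levels are the deposited log2 values, and a change is the mean of the treated minus the mean of the DMSO arrays on that scale. A change was called when its adjusted p was below 0.05 (limma, Benjamini-Hochberg over the 10661 genes).

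The mitochondrial ribosome translates the few membrane proteins of the respiratory chain that are encoded in mitochondrial DNA. All of its proteins are encoded in the nucleus, made in the cytosol and imported, and they meet rRNA transcribed inside the organelle, so a ribosome needs both genomes. Compared with its bacterial relative it carries less rRNA and more protein: part of the subunits descend from bacterial ribosomal proteins and part were added in the mitochondrial lineage.

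The arrays differed in ways that bear on the members. T-lineage markers at log2 4 or more numbered 9 to 13 of 14 on each array, with CD5 under log2 3 in TALL-1, CD2 in P12-ICHIKAWA, and CD1A in RPMI-8402. In SUPT11, CD1A and DNTT were under it. On 3 arrays, transcripts foreign to the line stood out: 27 of 85 genes under log2 3 on the other TALL-1 arrays but at log2 8 or more throughout the other lines were above log2 3 on the second treated TALL-1 array, 17 of 51 on the second treated SUPT11 array and 5 of 17 on DMSO array 3 of RPMI-8402. On the first treated P12-ICHIKAWA array it was 4 of 24, and on each other array at most 1. The 3' minus 5' signal of ACTB, which grows as RNA degrades, was 0.49 higher in treated than in DMSO arrays of TALL-1 and 0.30 higher in RPMI-8402, against 0.05 in SUPT11 and 0.04 in P12-ICHIKAWA. In bulk RNA, fewer cells that hold a transcript and less of it per cell cannot be told apart.

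The promoters of 67 of the 75 members had a sequence in RefSeq (GRCh38.p14, 250 bases before to 50 after the start). MRPL2, MRPL10, MRPL13, MRPL15, MRPL21, MRPL23, MRPL35 and MRPS28 had none. Motifs known from promoters of nuclear genes for mitochondrial proteins were searched on both strands, together with stress elements, and letters of different motifs may share bases. The 4 sequences below are the 250 bases before the start of the members with the largest mean fall that held a motif there, written 5′ to 3′ on the strand of the gene, with the matched letters in capitals. MRPS17 holds one CCAAT, MRPL17 the letters of nuclear respiratory factor 1 (GCATGCGC or GCGCATGC, overlapping at 1 of the places), MRPL4 the CCAAT box in reverse (ATTGG) 4 times, and MRPS26 one ETS motif (CTTCCGG, the reverse complement of CCGGAAG).
MRPS17 (chr7:55951627-55951876, plus strand): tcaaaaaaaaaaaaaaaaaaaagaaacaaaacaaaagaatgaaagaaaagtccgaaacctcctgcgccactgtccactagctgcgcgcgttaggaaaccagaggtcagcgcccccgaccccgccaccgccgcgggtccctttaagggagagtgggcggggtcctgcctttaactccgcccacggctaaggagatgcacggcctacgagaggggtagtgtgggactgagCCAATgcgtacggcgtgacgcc
MRPL17 (chr11:6683341-6683590, minus strand): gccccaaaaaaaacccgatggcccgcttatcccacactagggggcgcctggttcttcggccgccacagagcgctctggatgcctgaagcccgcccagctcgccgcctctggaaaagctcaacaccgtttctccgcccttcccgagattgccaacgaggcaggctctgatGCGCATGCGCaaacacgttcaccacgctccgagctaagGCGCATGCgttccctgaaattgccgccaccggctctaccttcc
MRPL4 (chr19:10251701-10251950, plus strand): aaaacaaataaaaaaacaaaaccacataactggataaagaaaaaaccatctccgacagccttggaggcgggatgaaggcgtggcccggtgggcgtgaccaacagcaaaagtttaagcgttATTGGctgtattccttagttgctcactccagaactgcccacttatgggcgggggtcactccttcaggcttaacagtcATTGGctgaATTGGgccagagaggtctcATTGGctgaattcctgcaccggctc
MRPS26 (chr20:3045802-3046051, plus strand): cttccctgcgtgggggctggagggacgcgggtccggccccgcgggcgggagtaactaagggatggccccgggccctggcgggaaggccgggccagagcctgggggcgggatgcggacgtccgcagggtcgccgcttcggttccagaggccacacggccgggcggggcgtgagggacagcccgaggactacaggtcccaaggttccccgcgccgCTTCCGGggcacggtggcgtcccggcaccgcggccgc

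The first matched base lay 22 bases before the start in MRPS17 (position -22), at -81, -79 and -43 in MRPL17, at -130, -53, -44 and -25 in MRPL4 and at -37 in MRPS26. Across the members, the ETS motif was held by 28 of 67 windows (41.8%), against 10.7% of all 27305 windows and 20.7% of the 8820 windows of tested genes. The letters of YY1 (AAGATGGC or GCCATCTT), a zinc finger factor of many housekeeping genes, were in 19 (28.4%), against 3.03% and 5.90%. NRF1 letters were in 6 (8.96%), against 3.27% and 5.92%. The E-box CACGTG, which MYC and its relatives bind, was in 6 (8.96%), against 7.44% and 10.7%, and CCAAT in 20 (29.9%), against 35.7% and 37.6%. The cyclic AMP element TGACGTCA was in no window of a member, against 1.98% and 3.4%. The amino acid response element TGATGCAAT, bound by ATF4, was also in none, against 0.264% and 0.125%. That element is too rare for its absence from 67 windows to be informative. Of the 47 windows of members that fell in RPMI-8402, 19 held the ETS, 12 the YY1, 4 the NRF1, 3 the E-box and 16 the CCAAT letters. Among the other 20 members these counts were 9, 7, 2, 3 and 4. The windows of MRPL12 and MRPL14 held none of the motifs. A match is a description of letters, not a bound site.

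In RPMI-8402 the transcripts of most mitochondrial ribosomal protein genes fell. Of 75 members, 53 were lower after NVS-ZP7-3, against 21.5% of all genes tested, and 1 was higher, against 15.1%. The fall took in both subunits, 34 of 48 large and 19 of 27 small subunit genes. The median large subunit gene changed by -0.30 and the median small subunit gene by -0.25, that is to 81.3% and 84.1% of the DMSO level, while the median of all genes was -0.02. No large subunit gene was called higher, and 1 was above 0 at an unadjusted p below 0.05. In all, 71 members had a change below 0, beside 5841 of all 10661 genes, and 15 had one below -0.5, beside 986. Called falls ran from -0.20 to -0.95. On 60 members all 3 treated arrays lay below all 3 DMSO arrays, a separation seen in 28.7% of all genes. Among the 5893 genes within the brightness range of the members, 24.7% were lower and the median was -0.03.

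**Figure D1:**
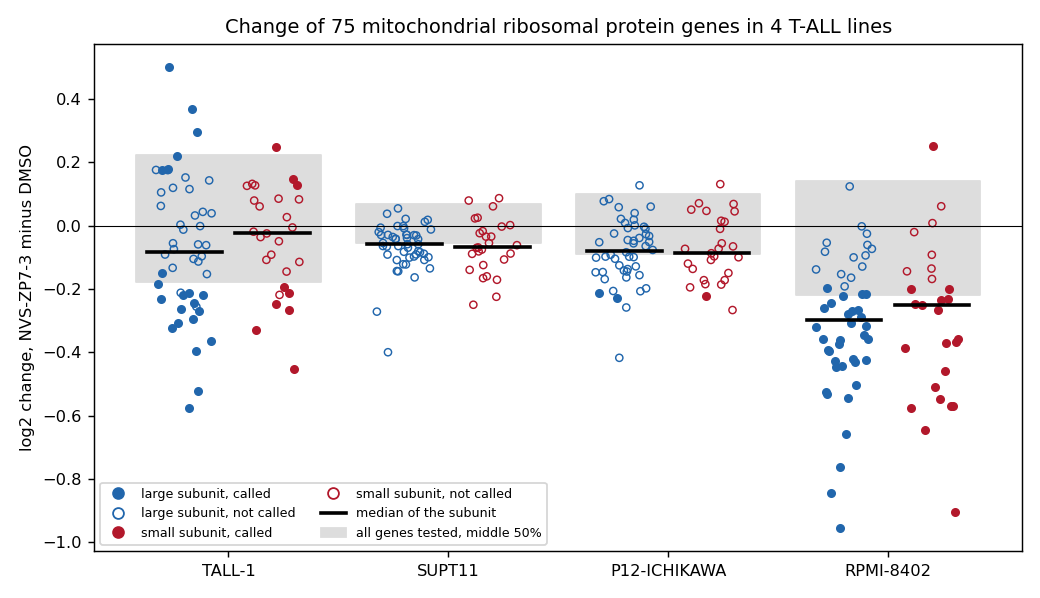
Each point is 1 of the 75 genes, placed by its log2 change (NVS-ZP7-3 minus DMSO, vertical axis) in each line, large subunit in blue and small subunit in red, filled where the adjusted p was below 0.05. The black bars are subunit medians, at -0.30 and -0.25 in RPMI-8402 and between -0.09 and -0.02 in the other lines, and the grey box spans the middle 50% of all genes tested.

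The largest falls in RPMI-8402 were in transcripts for proteins with a bacterial counterpart. MRPL12, the stalk protein that recruits translation factors to the large subunit, stood at 10.60, 10.79 and 10.61 on the DMSO arrays and at 9.63, 9.81 and 9.69 on the treated ones. The treated arrays lay below every DMSO array, and the change was -0.95 ± 0.13 (SE; adjusted p = 1.07e-05), to 51.6% of the DMSO level. The other tested probe set of MRPL12 showed a smaller fall, -0.70 ± 0.13 (adjusted p = 0.000342 over the 20461 probe sets tested). MRPS17, an rRNA-binding protein of the small subunit and the first of the promoters shown, went from 11.004, 10.92 and 11.08 to 10.19, 9.99 and 10.11, a change of -0.90 ± 0.09 (adjusted p = 4.25e-07). MRPL14, at the face of the large subunit that meets the small one, went from 11.11, 11.37 and 11.27 to 10.43, 10.42 and 10.37, a change of -0.84 ± 0.09 (adjusted p = 1.08e-06). In these members the groups are separated by several times the spread of the arrays.

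MRPL4, a protein of the wall of the exit tunnel, read 10.34, 10.71 and 10.40 with DMSO and 9.73, 9.74 and 9.69 with the compound, and the change was -0.76 ± 0.11 (adjusted p = 3.23e-05). Its 3 treated arrays spanned less than the DMSO arrays, of which the second was the highest. MRPS26, a subunit added in mitochondria, read 11.19, 11.32 and 11.14 against 10.57, 10.45 and 10.70 and changed by -0.64 ± 0.10 (adjusted p = 3.79e-05). MRPS2, a counterpart of bacterial S2, read 9.50, 9.68 and 9.44 against 8.85, 8.98 and 9.06 and changed by -0.57 ± 0.12 (adjusted p = 0.000772). Both were separated without overlap. MRPL17 fell by 0.66 on the log2 scale and MRPS28 by 0.57, and MRPS7, which binds rRNA in the head of the small subunit, by 0.55, again with every treated array below the DMSO arrays.

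Further members of both subunits separated on all arrays of RPMI-8402, as seen in these, picked after their values were seen. MRPL36, a small counterpart of bacterial L36, read 12.46, 12.57 and 12.47 with DMSO and 11.94, 11.95 and 11.98 with the compound. MRPS12, of the decoding region, read 11.07, 11.29 and 11.18 against 10.56, 10.63 and 10.83. MRPL24 read 11.16, 11.30 and 11.34 against 10.78, 10.71 and 10.70. Their changes of -0.54 ± 0.07, -0.51 ± 0.09 and -0.53 ± 0.11 are several times their standard errors. MRPL12 and MRPS17 thus lie at the end of a range of falls rather than apart from the other members.

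MRPS25 was the 1 member called higher in RPMI-8402, and its probe sets disagreed. The brightest probe set read 12.83, 12.80 and 12.67 with DMSO and 12.99, 13.07 and 13.003 with the compound, a change of 0.25 ± 0.07 (adjusted p = 0.00857). The other 2 probe sets of the gene fell, by -0.58 ± 0.08 (adjusted p = 1.45e-05) and -0.38 ± 0.12 (adjusted p = 0.016, both over the 20461 probe sets tested), so the direction of the gene is not settled by these arrays. Without the 3 arrays with foreign transcripts the rise was not called, and no member was then higher in RPMI-8402. Over all members, 59 further probe sets were tested. In RPMI-8402, 28 of them were called together with the brightest one, and 26 of the 28 moved the same way, the exceptions being the pair for MRPS25. Another 14 were not called where the brightest one was, and 13 were called where it was not, 12 lower and 1 higher.

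Checks that touch the RPMI-8402 arrays gave the following. Without the 3 arrays with foreign transcripts, 52 members were lower, with medians of -0.31 for the large and -0.27 for the small subunit. With the ACTB signal difference added as a covariate, 43 were lower, with medians of -0.25 and -0.22. That difference ran from 2.06 to 2.20 on DMSO and from 2.29 to 2.60 on treated arrays of this line. The ACTB fit thus cannot fully separate it from the compound. On DMSO array 3 HBB stood at 14.65 and LYZ at 12.54. The 4 erythroid markers with a probe set (of 9 listed) summed to log2 4.22 to 14.68 on DMSO and 8.68 to 12.99 on treated arrays, with AHSP under log2 3 throughout. The 9 myeloid markers summed to 5.35 to 12.73 and 6.05 to 9.94, and S100A12, CD14, CSF1R, MPO and ELANE were under log2 3 throughout. With HBB as a covariate 53 members were lower, with medians of -0.29 and -0.24.

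**Figure D2:**
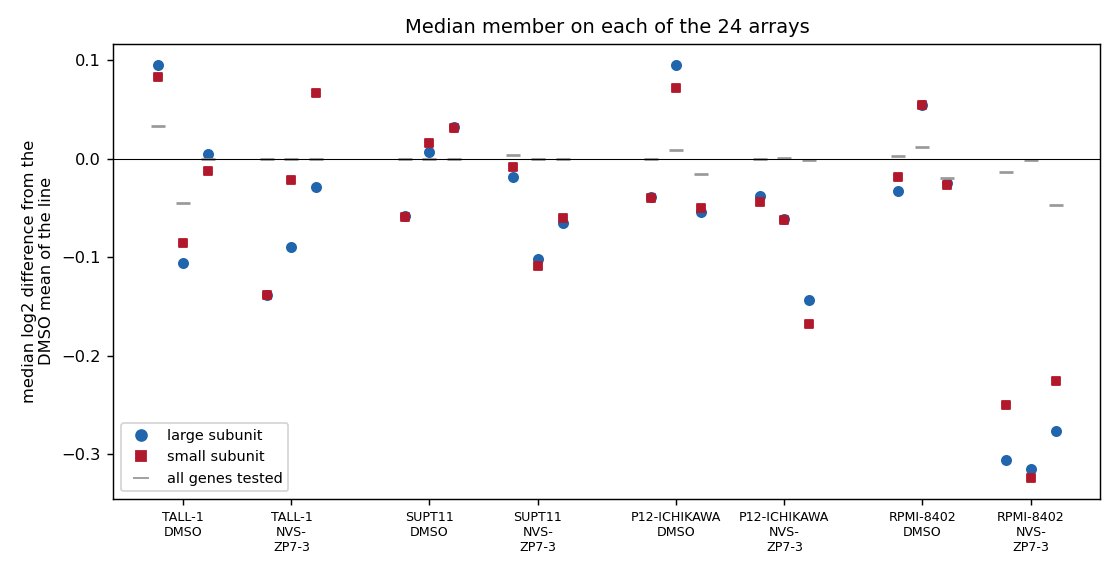
For each of the 24 arrays, the median over the large (blue circles), small (red squares) subunit genes and all genes tested (grey dashes) of the log2 level minus the DMSO mean of that line (vertical axis), arrays grouped by line and treatment. The subunit medians of the 3 treated RPMI-8402 arrays lie between -0.32 and -0.23, and no other array is below -0.17.

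TALL-1 cells showed changes in both directions. Of 75 members, 22 were lower, against 19.6% of all genes, and 9 were higher, against 22.3%. Falls were called in 16 large and 6 small subunit genes and rises in 6 and 3. The medians were -0.08 for the large and -0.02 for the small subunit, with 0.00 over all genes. All 3 treated arrays lay below the DMSO arrays for 21 members (23.3% of all genes). Of the 22 members that were lower, 20 were also lower in RPMI-8402, where 53 of 75 members were. This overlap was not counted over all genes and is a description.

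MRPL12 again led the falls, from 9.97, 9.51 and 9.66 with DMSO to 8.96, 9.12 and 9.33 with the compound, a change of -0.57 ± 0.13 (adjusted p = 0.0013). Its other tested probe set read -0.65 ± 0.13. MRPL17, whose promoter holds the NRF1 letters shown above, went from 10.98, 10.67 and 10.62 to 10.04, 10.24 and 10.41, a change of -0.52 ± 0.10 (adjusted p = 0.000381). MRPS17 went from 10.64, 10.51 and 10.82 to 9.99, 10.22 and 10.40, a change of -0.45 ± 0.09 (adjusted p = 0.000637). In each of these the arrays were separated, though the spread within a group was wider than in RPMI-8402. MRPL28 fell by 0.40, MRPS28 by 0.33 and MRPS7 by 0.27 on the log2 scale.

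The rises in TALL-1 were fewer. MRPL10, which carries the stalk that MRPL12 forms, rose from 10.87, 10.42 and 10.60 to 11.06, 11.17 and 11.16, a change of 0.50 ± 0.10 (adjusted p = 0.000427), to 142% of the DMSO level. MRPL12 and MRPL10, neighbours in the same stalk, thus moved in opposite directions in this line, each with all treated arrays on 1 side. MRPL45, which lies at the tunnel exit and holds the ribosome at the inner membrane, rose from 11.61, 11.49 and 11.63 to 11.97, 11.97 and 11.91, a change of 0.37 ± 0.05 (adjusted p = 2.27e-05). A pseudogene copy, MRPL45P2, exists, and probes that pick up both cannot be told apart here. MRPL48, of the central protuberance, rose by 0.30 ± 0.06 (adjusted p = 0.000642), MRPS18B, a relative of bacterial S18, by 0.25 ± 0.07 (adjusted p = 0.00602) and MRPS27, a helical repeat protein of the small subunit, by 0.13 ± 0.04 (adjusted p = 0.0149). MRPS30 rose by 0.15 ± 0.06 (adjusted p = 0.0495), a call that 23 of 37 alternatives did not keep. Its change was 0.085 without treated array 3 of TALL-1.

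**Figure D3:**
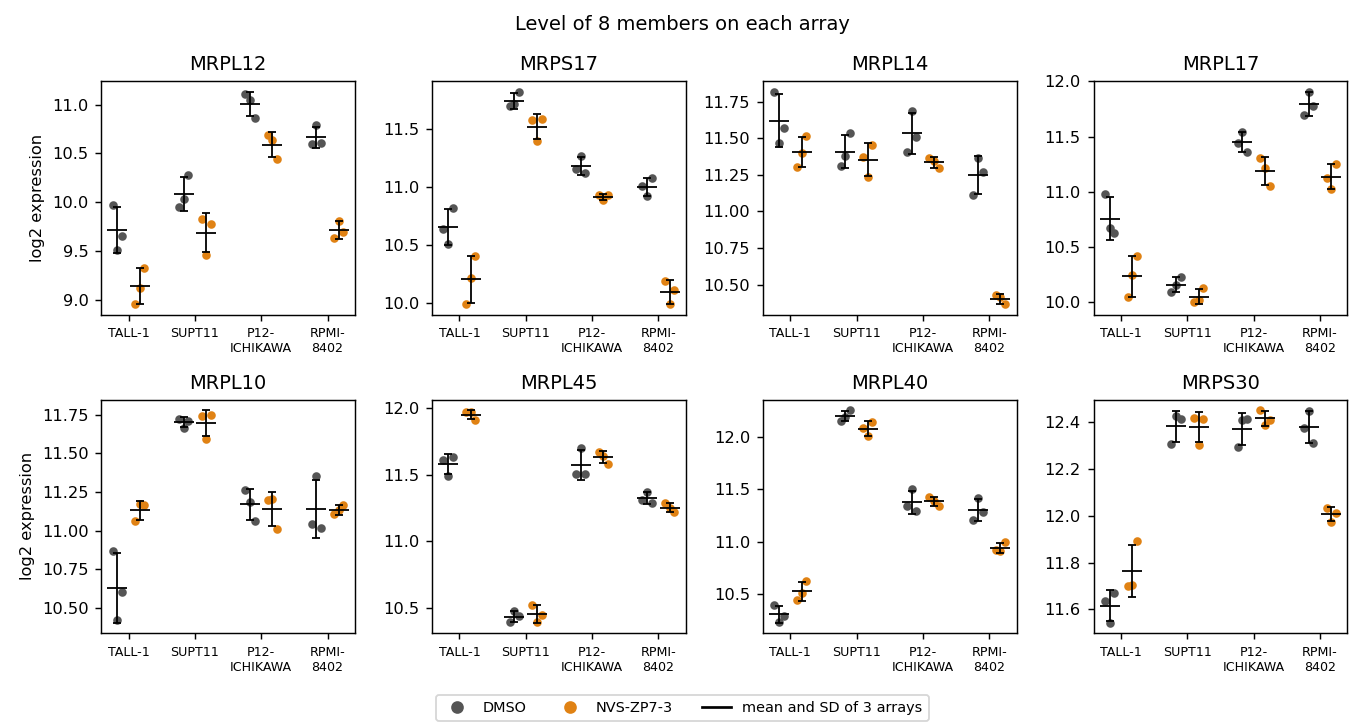
Log2 level (vertical axis) of 8 members on every array, DMSO in grey and NVS-ZP7-3 in orange, by line, with bars for the mean and SD of 3 arrays. MRPL12, MRPS17, MRPL14 and MRPL17 (top row) fall in RPMI-8402, MRPL10 and MRPL45 rise in TALL-1, and MRPL40 and MRPS30 rise in TALL-1 and fall in RPMI-8402.

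The counts in TALL-1 were less firm than those in RPMI-8402. A fit of the 6 TALL-1 arrays alone gave 7 lower and 5 higher members. With the ACTB signal difference added as a covariate 7 members were lower. That difference ran from 1.96 to 2.07 on DMSO and from 2.40 to 2.62 on treated TALL-1 arrays. The ACTB fit thus cannot fully separate it from the compound. Leaving out 1 array moved the count of lower members between 15 (without DMSO array 1) and 28 (without DMSO array 2), and without the 3 arrays with foreign transcripts it was 15.

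In SUPT11 no member was called, lower or higher (limma), where 0.582% of all genes were lower and 1.18% higher. At an unadjusted p below 0.05, 8 members were lower and 0 higher, beside 387 and 541 of all 10661 genes. The lowest adjusted p of a member was 0.196. Changes were small and mostly to the same side: 64 of 75 members were below 0, beside 5046 of all 10661 genes. The medians were -0.06 in the large and -0.07 in the small subunit. Against the DMSO mean of the line, the median member stood at -0.06 on DMSO array 1 and at -0.01 on treated array 1. The 2 treatments thus overlapped in that median. By its brightest probe set MRPL12 showed the largest change, from 9.95, 10.03 and 10.28 to 9.82, 9.46 and 9.78 (-0.40 ± 0.13, adjusted p = 0.196). The other tested probe set of MRPL12 read only -0.04 ± 0.13 in SUPT11. The treated arrays of 13 members, MRPL12 among them, lay below all DMSO arrays (7.77% of all genes). The medians without the second treated array, the one with foreign transcripts, were -0.04 and -0.03.

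In P12-ICHIKAWA 3 members were lower, against 2.98% of all genes, and 0 were higher (limma; 0 also at an unadjusted p below 0.05), against 4.91%. They were MRPL37 (-0.23 ± 0.05, adjusted p = 0.0121), MRPL19 (-0.21 ± 0.05, adjusted p = 0.017) and MRPS18C (-0.22 ± 0.06, adjusted p = 0.0323). MRPL37, a mitochondrial addition, read 12.33, 12.40 and 12.30 with DMSO and 12.12, 12.16 and 12.08 with the compound. MRPL19, a counterpart of bacterial L19, read 11.60, 11.70 and 11.71 against 11.48, 11.48 and 11.41. Both were also lower in TALL-1 and RPMI-8402, the only members called lower in 3 lines by their brightest probe set. The other tested probe sets of MRPL19 were called in no line, and in P12-ICHIKAWA they read 0.17 ± 0.15 and 0.02 ± 0.14.

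MRPS18C, another relative of bacterial S18, read 11.25, 11.26 and 11.06 against 10.99, 10.94 and 10.98, but a second probe set of the gene rose by 0.73 ± 0.13 in the same line (adjusted p = 0.00156) and by 0.49 ± 0.13 in TALL-1 (adjusted p = 0.00557), so its direction is not settled either. MRPL12 (-0.42 ± 0.13, adjusted p = 0.0535) and MRPS17 (-0.27 ± 0.09, adjusted p = 0.0934) were separated on all arrays without passing the threshold. The other tested probe set of MRPL12 read -0.29 ± 0.13 and was not called either. In all, 57 of 75 members were below 0, beside 5142 of all 10661 genes. The medians were -0.08 and -0.09, and 20 members had all treated arrays below the DMSO arrays (9.5% of all genes). HBB stood at 7.96 to 11.45 on the treated and at most at 2.29 on the DMSO arrays of this line. The erythroid markers summed to log2 4.18 to 4.21 with DMSO and 8.03 to 11.45 with the compound, with HBD, ALAS2 and AHSP under log2 3, and the myeloid markers to 5.36 to 5.47 and 6.35 to 8.20, with all but LYZ under log2 3. With HBB as a covariate 0 members were called lower (limma), and 0 with the replicate number as a block. As HBB did not overlap between the treatments of this line, the fit with HBB cannot fully separate it from the compound. 

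On average over the 4 lines, 47 members were lower, against 24.5% of all genes, and 6 were higher, against 22.4%. The falls held 32 large and 15 small subunit genes, and the subunit medians were close to each other at -0.13 and -0.14. The largest average falls were those of MRPL12 (-0.59 ± 0.06, adjusted p = 5.88e-07), MRPS17 (-0.46 ± 0.05, adjusted p = 2.06e-07), MRPL17 (-0.39 ± 0.05, adjusted p = 5.35e-06) and MRPL4 (-0.37 ± 0.06, adjusted p = 2.61e-05). The largest average rises among called members were in MRPS18B (0.13 ± 0.03, adjusted p = 0.00361), MRPS25 (0.11 ± 0.04, adjusted p = 0.0185, for its brightest probe set), MRPL45 (0.09 ± 0.03, adjusted p = 0.00882) and MRPL48 (0.08 ± 0.03, adjusted p = 0.0343). The average rise of MRPL48 lost its call in 16 of 36 alternatives. The average is carried mostly by RPMI-8402, where 66 members had the lowest change of the 4 lines. The change was below 0 in every line for 41 members and above 0 in every line for 3. These counts and that of 66 were not made over all genes and are descriptions. With the ACTB signal difference added as a covariate, 29 members were lower and 3 higher on average, with the limit of that fit given above.

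**Figure D4:**
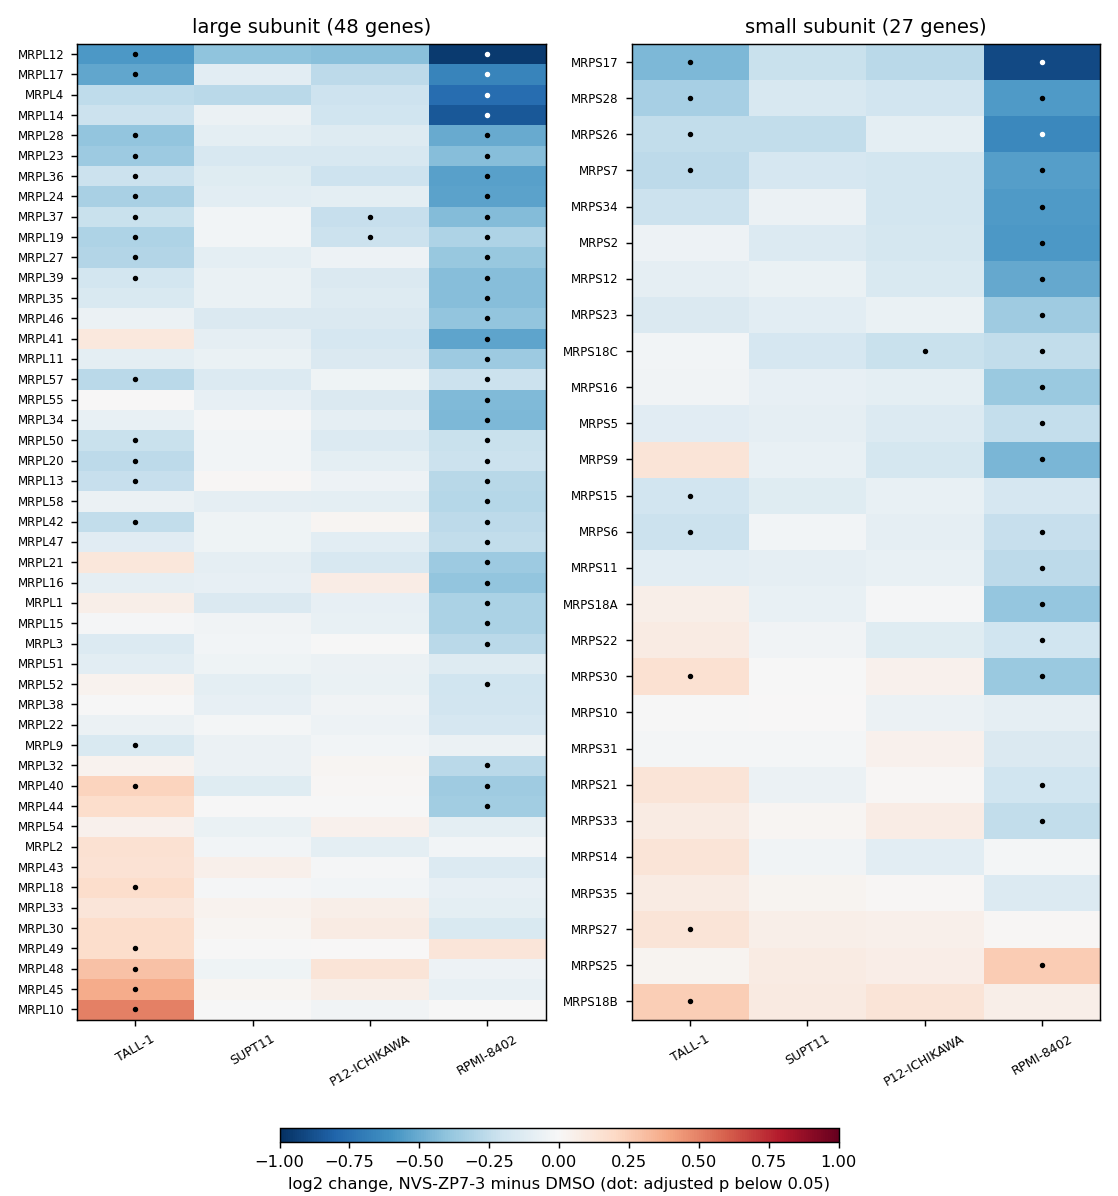
Log2 change (colour, blue lower and red higher after NVS-ZP7-3) of 48 large and 27 small subunit genes in the 4 lines, ordered by their mean change, with a dot where the adjusted p was below 0.05. The column of RPMI-8402 is blue for 71 of 75 genes, and the red cells of TALL-1 hold 9 of the 10 called rises, the other being MRPS25 in RPMI-8402.

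Whether the lines differed was tested directly. The F test of the interaction called 29 of 75 members (20 large, 9 small), against 35.8% of all genes, a share near that background (38.7%). With the replicate number as a block it called 16. Without the block, RPMI-8402 had the lowest change for 27 of the 29, a count not made over all genes. Against the mean of the other 3 lines, the change in RPMI-8402 was more negative for 30 members (18 large, 12 small), where 11.4% of all genes were. MRPL14 differed the most there, by -0.69 ± 0.11 (adjusted p = 0.000173), followed among the named members by MRPS17 (-0.59 ± 0.11, adjusted p = 0.000724) and MRPL4 (-0.52 ± 0.13, adjusted p = 0.00951). MRPL12, for which the F test was not called (adjusted p = 0.0609), differed by -0.49 ± 0.15 (adjusted p = 0.0267). TALL-1 was more positive than the others for 11 members, where 16.9% of all genes were, and more negative for 1, where 11.8% were. SUPT11 was more positive for 6, all of the large subunit (7.17% of all genes). Leaving out DMSO array 2 of RPMI-8402 left 17 members more negative in that line, and leaving out DMSO array 1 of TALL-1 raised it to 38.

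MRPL40 and MRPS30 were called in opposite directions in 2 lines, a description with no such count made over all genes. MRPL40, a protein of the central protuberance region, read 10.39, 10.23 and 10.29 in TALL-1 with DMSO and 10.44, 10.51 and 10.62 with the compound (0.22 ± 0.07, adjusted p = 0.0122). In RPMI-8402 it read 11.21, 11.41 and 11.28 against 10.92, 10.91 and 10.997 (-0.36 ± 0.07, adjusted p = 0.000315). MRPS30, a relative of MRPL37, fell in RPMI-8402 from 12.38, 12.45 and 12.31 to 12.03, 11.97 and 12.01 (-0.37 ± 0.06, adjusted p = 6.42e-05) while its rise in TALL-1, given above, was lost in most alternatives. MRPS9, whose bacterial counterpart reaches the peptidyl site, fell in RPMI-8402 (-0.46 ± 0.10, adjusted p = 0.000951) and stood at 0.13 ± 0.10 in TALL-1 (adjusted p = 0.33). For these 3 the F test of the interaction gave adjusted p = 0.000706, 0.000397 and 0.0149.

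By origin, read from the symbol number (up to 36 in the large and 21 in the small subunit for a bacterial counterpart), the members with a counterpart were lower in a larger share than the additions, a description with no test. In RPMI-8402, 33 of 44 with a counterpart and 20 of 31 additions were lower, with medians of -0.32 and -0.24. In TALL-1 the counts were 15 of 44, with 3 higher, and 7 of 31, with 6 higher, and the medians -0.09 and 0.00. The 4 members with the largest average falls, MRPL12, MRPS17, MRPL17 and MRPL4, all have a counterpart. Across members, 20 were lower in no line, 34 in 1, 19 in 2 and 2 in 3, with no such count made over all genes. By their brightest probe set, 12 were called in no line. These were MRPL2, MRPL22, MRPL30, MRPL33, MRPL38, MRPL43, MRPL51 and MRPL54 in the large and MRPS10, MRPS14, MRPS31 and MRPS35 in the small subunit, and their changes in RPMI-8402 ran from -0.19 for MRPL38 to -0.02 for MRPS14. Another probe set was called in RPMI-8402 for 7 of the 12, lower for 6 (MRPL2, MRPL30, MRPL38, MRPL43, MRPS10 and MRPS31) and higher for 1. For MRPL30 such a probe set fell by 0.66 on the log2 scale (adjusted p = 7.71e-06) and for MRPS10 by 0.75 (adjusted p = 8.76e-06). For MRPS14 another probe set rose by 0.35 ± 0.07 in RPMI-8402 (adjusted p = 0.000837) and was also called higher in TALL-1 and P12-ICHIKAWA, so these members are uncalled only as their brightest probe set reads them. Each member was also set against the mean of the others over the 24 arrays, after the DMSO mean of each line was taken off. The median correlation was 0.80 (Pearson, 24 arrays that share lines and treatment), from 0.96 for MRPS23 down to -0.74 for the brightest probe set of MRPS25, and 3 members were below 0 (MRPS25, MRPS18B and MRPL49).

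Levels with DMSO differed among the lines for all 75 members by the F test, as they did for 96.3% of all genes. TALL-1 was the lowest line for 45 members, with a median of -0.32 from the mean of the lines (all genes -0.04), and SUPT11 the highest for 28. MRPS26 had the widest range, from 8.98 ± 0.11 (SD, n = 3) in SUPT11 and 10.42 ± 0.18 in TALL-1 to 11.22 ± 0.09 in RPMI-8402, with P12-ICHIKAWA at 11.11 ± 0.11 overlapping the latter. MRPS34, an addition of the small subunit, stood at 8.51 ± 0.24 in TALL-1, 9.77 ± 0.07 in RPMI-8402, 10.04 ± 0.12 in SUPT11 and 10.61 ± 0.11 in P12-ICHIKAWA, with no overlap between neighbours. MRPL41 went from 9.82 ± 0.27 in TALL-1 over 10.52 ± 0.14 in RPMI-8402 and 10.82 ± 0.20 in P12-ICHIKAWA to 11.76 ± 0.53 in SUPT11, and the middle pair touched. MRPL40 was at 10.30 ± 0.08 in TALL-1, 11.30 ± 0.10 in RPMI-8402, 11.38 ± 0.11 in P12-ICHIKAWA and 12.20 ± 0.05 in SUPT11, and the middle pair overlapped. The order of the lines thus differed from member to member, and the line with the largest fall, RPMI-8402, was the highest in 15 members and the lowest in 11.

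Lists of genes that work with the mitochondrial ribosome were counted in RPMI-8402 beside the 21.5% of all genes that were lower, with no test of a list. Of the mitoribosomal proteins under other symbols, 3 of 4 tested fell: GADD45GIP1 (-0.53 ± 0.09, adjusted p = 0.000192), CHCHD1 (-0.41 ± 0.13, adjusted p = 0.0193) and PTCD3 (-0.37 ± 0.10, adjusted p = 0.0074). Of the assembly factors and rRNA modifiers 14 of 24 fell, among them the methyltransferase MRM3 (-0.74 ± 0.12, adjusted p = 5.79e-05), and of the translation factors 6 of 14, among them SLIRP, a partner of LRPPRC in mRNA stability (-0.78 ± 0.09, adjusted p = 1.69e-06), and MTFMT, which formylates the initiator tRNA (-0.63 ± 0.09, adjusted p = 1.4e-05). Of the mitochondrial aminoacyl-tRNA synthetases 8 of 15 fell, MARS2 by -1.33 ± 0.12 (adjusted p = 1.25e-07). Of the genes of mitochondrial transcription and DNA maintenance 6 of 9 fell, POLRMT, the RNA polymerase, by -0.83 ± 0.25 (adjusted p = 0.0144) and TFAM, which packs the DNA, by -0.23 ± 0.05 (adjusted p = 0.00153). Nuclear-coded respiratory chain subunits fell in 37 of 67, with a median of -0.17. The list of mitochondrial chaperones and proteases also holds ATF5, a transcription factor. Of its 10 tested genes 2 fell, a share near that of all genes, and the 1 that rose was ATF5. The elongation factor TUFM stood at -0.25 ± 0.12 (adjusted p = 0.11) and was not called.

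Few genes for proteins of the cytosolic ribosome were called. Of 79 listed, 52 had a probe set of their own and were tested, and 1 was lower in RPMI-8402, with a median of -0.01. In TALL-1, 9 of the 52 were higher, RPL12 by 0.17 ± 0.05 (adjusted p = 0.00682) and RPL3 by 0.10 ± 0.04 (adjusted p = 0.0421), and the median was 0.05. The difference between the genes of the 2 kinds of ribosome was not tested. Transcripts for the cytosolic proteins lie near the top of the scale, RPL3 at 15.27 with DMSO in RPMI-8402. In TALL-1, where 19.6% of all genes were lower and 22.3% higher, 6 of 24 assembly factors fell and 7 rose, and 22 of 67 respiratory chain subunits fell and 4 rose. Of the genes of mitochondrial transcription and DNA maintenance 4 of 9 fell and 0 rose (limma; 4 and 1 at an unadjusted p below 0.05). Of the translation factors 3 of 14 fell and 3 rose in TALL-1. SLIRP (-0.28 ± 0.09, adjusted p = 0.0158) and MTFMT (-0.23 ± 0.09, adjusted p = 0.0407) were among those that fell. Among the rises was OXA1L, which inserts new proteins into the inner membrane and binds the ribosome (0.63 ± 0.07, adjusted p = 9.46e-07). In SUPT11 no gene of these lists was called (limma), and 6 were lower and 0 higher at an unadjusted p below 0.05.

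**Figure D5:**
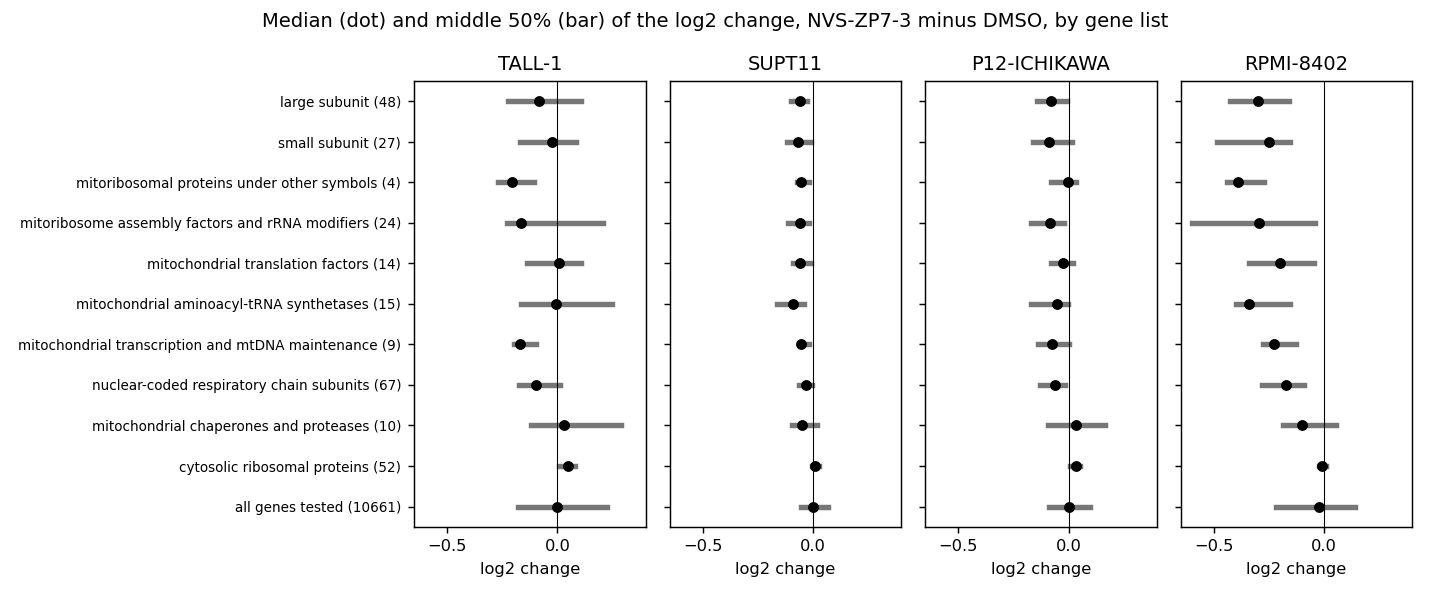
Median log2 change (dot) and middle 50% (bar) of the members and of lists of related genes in each line, with the number of genes tested in brackets. In RPMI-8402 the medians of the large and small subunit (-0.30 and -0.25) and of the assembly factors (-0.30) lie below 0, while that of the cytosolic ribosomal proteins is -0.01.

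Regulators of such genes were called in some lines, and differences between lines were not tested for them. MYC, a factor that raises ribosomal and mitochondrial genes, fell in RPMI-8402 by -1.37 ± 0.10 (adjusted p = 5.93e-09) and in TALL-1 by -1.003 ± 0.10 (adjusted p = 2.85e-07), and stood at -0.11 ± 0.10 in SUPT11 and -0.07 ± 0.10 in P12-ICHIKAWA, not called. NRF1, the factor of the letters in MRPL17, fell in RPMI-8402 (-0.24 ± 0.07, adjusted p = 0.0104), and GABPA, of the ETS family, was called in no line. PPRC1, a coactivator of NRF1, fell in TALL-1 (-0.79 ± 0.18, adjusted p = 0.00142) and in RPMI-8402 (-0.48 ± 0.18, adjusted p = 0.0398). Whether these changes bear on the members was not tested. ATF5, a factor of the mitochondrial stress response, rose by 1.94 ± 0.09 in TALL-1 (adjusted p = 7.12e-12), by 1.81 ± 0.09 in RPMI-8402 (adjusted p = 1.73e-11) and by 1.16 ± 0.09 in P12-ICHIKAWA (adjusted p = 6.87e-08), and HSPE1, the co-chaperonin of the matrix, fell by 0.40, 0.38 and 0.18 on the log2 scale in the same lines.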

How the data were processed

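Values are on the log2 scale as the authors deposited them, for 54675 probe sets of an Affymetrix 3' array. GCRMA and limma are the tools in the submitters' processing notes, which give no version. The lowest value is 2.18. The number of arrays limits the precision. Gene names came from the platform annotation, with symbols updated through RefSeq (GRCh38.p14): 41097 had 1 gene, 1801 several and 11777 none, and only those with 1 gene were used (41043 matched RefSeq). Each gene was read from its brightest probe set, by mean over the 24 arrays, and of the 75 members 38 had 1 probe set and 37 several.

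Using limma 3.58.1 (R 4.3.3), 8 group means were estimated from the 24 arrays together (16 residual degrees of freedom, Benjamini-Hochberg adjustment), with contrasts for each line, their mean, each line minus the other 3, and F tests of the interaction and among DMSO groups. The steps were tested on simulated data, with 100 genes changed at each of 2 sizes. Per line, 20% to 26% of changes of 0.25 on the log2 scale were recovered, and 80% to 89% of changes of 0.5. Small changes can thus go uncalled. The simulation changed far fewer genes than were called in TALL-1 (4471) and RPMI-8402 (3906), against 188 in SUPT11 and 841 in P12-ICHIKAWA. The adjusted threshold is easier to pass where more genes change, so the shares recovered do not describe TALL-1 or RPMI-8402. Counts of called members are for that reason not on the same footing in all lines. Members, gene lists and named genes were chosen with earlier results of these data known. Named per line and subunit were up to 3 largest called falls and rises, the 4 largest of each on average, the 5 widest ranges of change, the 4 widest ranges with DMSO, members whose probe sets were called in opposite directions, and per list up to 3 genes with the largest mean change plus MYC, NRF1, GABPA, PPRC1, TFAM and TUFM. Not all named genes of the lists are printed. Alternatives were no filter or one at log2 6, averaging a gene's probe sets, median centring or quantile normalization of the arrays, the replicate block, an intensity trend, a line alone, a threshold of 0.01, ACTB and HBB as covariates, MRPS30 and MRPS18A moved to the large subunit, and leaving out each array. Leaving out the 3 arrays with foreign transcripts was chosen after seeing the data.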

Additional observations from a re-analysis of the deposited data

Results flagged for a closer look

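For 14 of the 24 named members the change differed among the 4 lines in the F test of the interaction (limma, adjusted over 10661 genes), which called 35.8% of all genes and 29 of the 75 members. Some of the 14 (MRPL14, MRPS17, MRPS9, MRPL40 and MRPL4) were named for their wide range of change over the lines, so the count of 14 is a description. The adjusted p-values were 0.000397 for MRPS30, 0.000524 for MRPL14, 0.000706 for MRPL40, 0.00102 for MRPL45 and 0.00162 for MRPS17. They were 0.00387 for MRPL37, 0.00574 for MRPS28, 0.00921 for MRPL48, 0.0121 for MRPL10 and 0.0149 for MRPS9. For MRPL17 the value was 0.0188, for MRPL19 0.0191, for MRPS26 0.0212 and for MRPL4 0.0281. All groups have 3 arrays, too few to call a single array an outlier.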

How the results depend on the processing

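No result on the members lower in RPMI-8402 left the range of 43 to 57 over the alternatives run, the main count being 53. Members lower in TALL-1 (22) numbered 7 in a fit of the line alone, 14 at an adjusted p below 0.01 and 7 with ACTB as a covariate, and members higher there (9) numbered 5 and 4 in the first pair of these. Members lower in P12-ICHIKAWA (3) numbered 1 with the mean of all probe sets, 5 with quantile normalization, 6 with median centring, 1 in the line alone, 0 at an adjusted p below 0.01 and 0 with HBB as a covariate (limma; 12 at an unadjusted p below 0.05 in the main setting). The member higher in RPMI-8402 became 2 with median centring and 0 without the 3 arrays with foreign transcripts. With ACTB as a covariate the large subunit median in RPMI-8402 was -0.25, and 29 members were lower and 3 higher on average. ACTB in TALL-1 and RPMI-8402 and HBB in P12-ICHIKAWA differed between the treatments without overlap. The fits with these covariates thus cannot fully separate them from the compound. At an adjusted p below 0.01, 2 members were higher on average, 9 differed among lines and 14 were more negative in RPMI-8402.

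The labels do not state whether the replicate numbers pair the arrays. Deviations of same-numbered DMSO and treated arrays correlated at -0.14 to 0.42, the highest being replicate 3 of P12-ICHIKAWA. With the replicate number as a block, members lower in P12-ICHIKAWA numbered 0 and those that differed among lines 16, while 47 were lower in RPMI-8402. The block was not run for levels with DMSO, since the blocks lie within lines. Leaving out 1 array at a time gave 15 to 28 lower and 6 to 11 higher members in TALL-1, 0 to 4 lower and 0 to 1 higher in P12-ICHIKAWA, 45 to 54 lower and 0 to 2 higher in RPMI-8402, 43 to 49 lower and 4 to 7 higher on average, 21 to 39 that differed among lines, 74 to 75 that differed with DMSO, and 17 to 38 more negative in RPMI-8402. Subunit medians ran from -0.16 to -0.02 (large) and -0.09 to 0.03 (small) in TALL-1, -0.08 to -0.04 and -0.11 to -0.03 in SUPT11, -0.11 to -0.03 and -0.11 to -0.05 in P12-ICHIKAWA, and -0.31 to -0.29 and -0.28 to -0.23 in RPMI-8402. Of 1102 alternative fits of 30 named changes, 1005 kept direction and call, 93 lost the call and 4 turned sign: MRPS18C in P12-ICHIKAWA (0.30 with the mean of all probe sets) and MRPS25 in RPMI-8402 (-0.23) and on average (-0.049, and -0.0078 with ACTB as a covariate). The mean of probe sets mixes those that disagreed, and the cause of the other shifts was not tested.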

Other observations

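Of the 2 transcripts with a member's symbol that code for no protein, MRPL45P2 rose in RPMI-8402 by 0.47 on the log2 scale, and MRPL20-AS1 was called in no line. The array probes do not settle whether signal for a pseudogene comes from its parent.

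Of the genes outside the family, those whose levels followed the mean of the 75 members most closely over the 24 arrays, with the DMSO mean of each line taken off, were TRUB2, a mitochondrial pseudouridine synthase (Pearson r = 0.971), C19orf53 (0.966), PRMT1, an arginine methyltransferase (0.961), GEMIN6, of the complex that assembles spliceosomal particles (0.958), and FASTKD5, which processes mitochondrial RNA (0.957). In RPMI-8402 they changed by -0.78, -0.46, -0.48, -0.65 and -0.49. The genes were picked by this correlation, and the median member was lowest on the treated RPMI-8402 arrays. Falls in that line thus follow from the choice. All 24 arrays share 4 lines and 2 treatments, and TRUB2 is on the list of assembly factors above.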
